A study of Homo sapiens with 2 samples.

Results

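OTX2 peaks whose summit lay inside an exon, away from the start of any protein-coding gene, are described here. A peak was taken when its summit, the base of highest coverage, fell in an exon of the Ensembl canonical transcript of a protein-coding gene on chromosomes 1 to 22 and more than 5 kb from every protein-coding transcription start site (TSS), taken as the 5′ end of the gene record. Of 133985 peaks on these chromosomes (137412 in the whole list), 1773 met the rule (1.32%, Wilson 95% interval 1.26% to 1.39%), of which 499 lay in coding exons, 86 in 5′ untranslated regions (UTRs) and 1188 in 3′ UTRs. The rule used positions only, and no peak height.

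The libraries came from D283, an established medulloblastoma cell line, grown as tumorspheres that express OTX2 and were left untreated. Crosslinked and sheared chromatin was pulled down with an OTX2 antibody in 1 library, and 1 input library was made from the same kind of spheres without antibody. After the authors removed duplicates the ChIP library held 61259377 fragments and the input library 22521186. Each arm was a single library of 1 cell line, so no value has a replicate error, no test over samples exists, and all intervals given cover counting error only. No expression was measured in these libraries, so the cell line label could not be checked against marker genes.

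OTX2 is a homeodomain transcription factor of the developing forebrain, midbrain and retina, and homeodomains of its class bind the letters TAATCC and, less tightly, close variants such as TAATCT. Coding exons carry codons under selection for protein sequence, while UTRs flank the coding sequence, the 5′ UTR next to the transcript start and the 3′ UTR next to its end. Transcription factors are mostly studied at promoters and at enhancers in introns or between genes, but a binding site may also lie within the letters of an exon.

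The sequences below show the motif at some of the highest exonic summits. Each run is 30 bases of the gene's own strand, 5′ to 3′, read from the GENCODE 44 record of the canonical transcript at the place of the summit in its exon, and capitals mark TAATCC or TAATCT, or the same motif on the other strand (GGATTA or AGATTA). The first 6 are from coding exons, the next 3 from 5′ UTRs and the last 4 from 3′ UTRs.
MET exon 11: catttatgtacaTAATCCtgtgtttaagcc
CAPN7 exon 5: tccactgggcgcTAATCCcttccttgaaag
CAPRIN2 exon 3: agtggagagcatctTAATCCagaccagttg
TRAPPC8 exon 2: cagcctgcagaaGGATTAgtagctaatgtg
SLC25A33 exon 6: ggcttctatagaGGATTAactgcctcgtat
CPD exon 11: ttacaaaactggAGATTActggcgtctctt
TRIB3 exon 1: acccggaccgggGGATTAgctccggtttgc
TULP4 exon 1: ttgcgtatgagaAGATTAcctgatggactt
NIM1K exon 2: gtgacattgcagGGATTAaatccttctttg
C1orf100 exon 5: caaattctttgcAGATTAagttggtcagct
QSOX1 exon 12: agagcctgccccTAATCCggcctgctgggt
MMACHC exon 4: ataatcagactcTAATCCctgtaaaaagat
GRIN2B exon 14: agccagcagggcTAATCCctagttccagga
In these 13 runs the centre of the motif lay 0 to 15 bp from the summit.

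Exonic peaks were sparser per base than intron peaks, and the classes of exon differed widely. Coding exons held 20.1 peaks per Mb (Poisson 95% interval 18.4 to 21.9) and 3′ UTRs 43.0 per Mb (40.6 to 45.5), against 53.6 per Mb (53.1 to 54.0) in introns under the same distance rule. The density in coding exons was 0.375 times and that in 3′ UTRs 0.802 times the intron density. 5′ UTRs stood on the other side, with 121 peaks per Mb (97.1 to 150) over only 0.708 Mb. Over all classes exons held 33.3 peaks per Mb (31.8 to 34.9), 0.623 times the intron density. On each of the 22 chromosomes the exonic density was below that in introns, with a ratio from 0.286 on chromosome 22 to 0.752 on chromosome 5. Exonic density was lowest on chromosomes 21 (13.9 per Mb), 22 (14.0), 19 (15.1) and 7 (18.0), and highest on chromosome 5 (44.5). Intron density on these was 36.4, 48.9, 34.4, 29.6 and 59.3 per Mb in the same order, and the chromosome 7 ratio was 0.610.

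The 5′ UTR peaks lay almost wholly at annotated transcript starts other than the 5′ end of a protein-coding gene record. Such a start, called another start here, may be that of the canonical transcript itself or of a further coding or noncoding transcript. Within 1 kb of one lay 80 of the 86 (93.02%, 85.6% to 96.8%), whereas 68.9% of the 5′ UTR bases considered did. In 72 of the 86 the summit lay in exon 1 of the canonical transcript, which then starts downstream of the 5′ end of the gene record. All 72 counted as near another start, which follows largely from the definition, since the start of their own exon 1 is itself such a start. Away from such starts, 6 peaks were left in 0.221 Mb of 5′ UTR, a density of 27.2 per Mb with a wide interval (10.0 to 59.2) that takes in the density of coding exons and that of introns. In coding exons 123 summits (24.6%) were near another start, beside 27.2% of bases, and in 3′ UTRs 76 (6.40%), beside 6.68% of bases. The density away from other starts was 20.8 per Mb in coding exons and 43.1 per Mb in 3′ UTRs, both within the interval of the whole class.

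**Figure D1:**
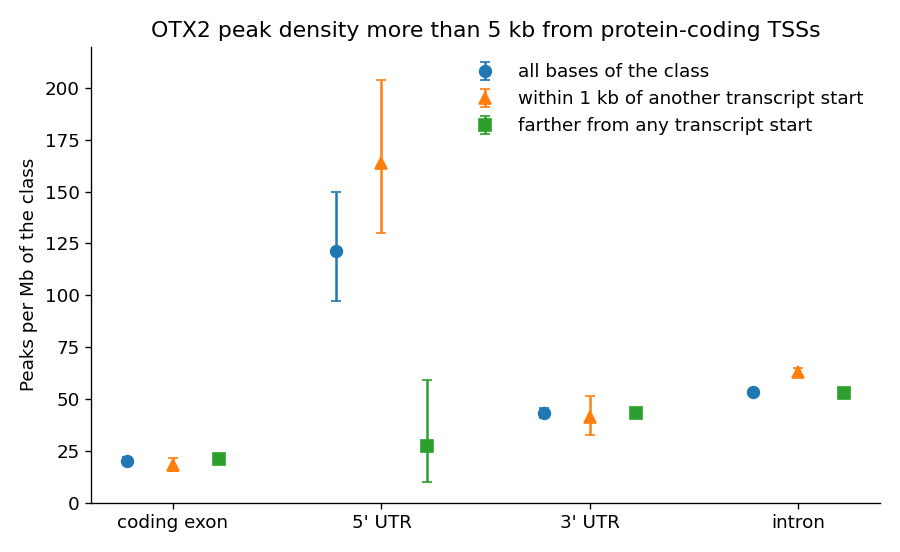
Peaks per Mb of each class more than 5 kb from protein-coding TSSs, for all bases, for bases within 1 kb of another annotated transcript start and for bases farther away, with Poisson 95% intervals. Other starts include that of the canonical transcript where it differs from the 5′ end of the gene record. 5′ UTRs reach 164 per Mb near other starts and 27.2 per Mb away from them, while coding exons stay between 18.2 and 20.8 and 3′ UTRs between 41.2 and 43.1.

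The low density of coding exons reached into the introns beside them. Intron bases 1 to 50 bp from a coding exon held 20.0 peaks per Mb (17.8 to 22.5), close to the 20.1 per Mb of coding exons themselves. The value was 30.5 per Mb (27.6 to 33.7) at 51 to 100 bp, 44.3 at 101 to 250 bp and 48.3 at 251 to 500 bp. It reached 58.9 per Mb (58.1 to 59.8) at 10001 to 50000 bp and was 52.6 farther away.

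**Figure D2:**
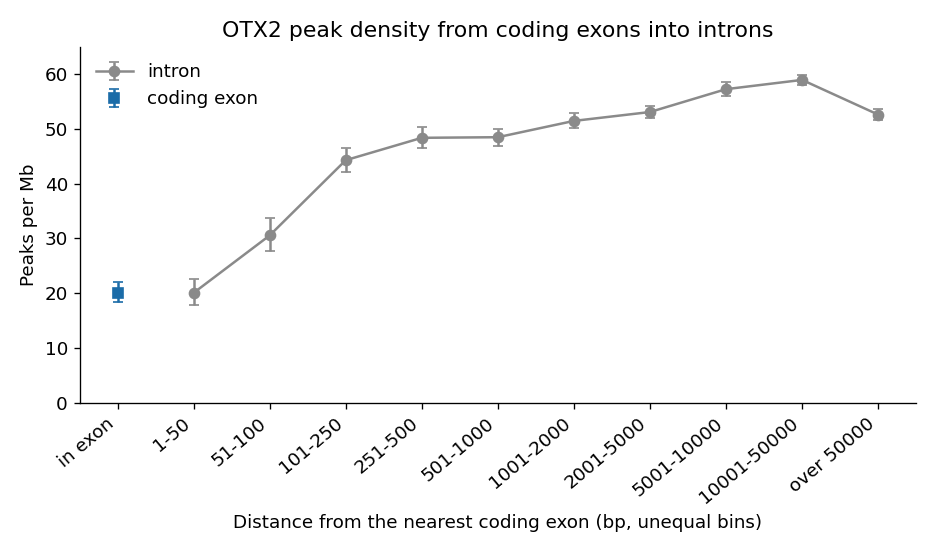
Peaks per Mb of intron by distance from the nearest coding exon, in bins of unequal width, beside the value inside coding exons, with Poisson 95% intervals. The curve starts at 20.0 per Mb next to the exon, level with the 20.1 in exons, and reaches 44.3 within 250 bp.

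Where in a gene the exonic peaks lay also differed by class. Most coding peaks, 412 of 499, were in internal exons, with 20.2 per Mb. Coding exons of at most 100 bp held 24.5 peaks per Mb (19.3 to 30.5) and those over 5000 bp held 11.97 (6.84 to 19.4), and the intervals overlap at their edges. 3′ UTR exons held 34.8 per Mb (19.5 to 57.4) above 200 and up to 500 bp, 29.8 (21.1 to 41.0) at 501 to 1000 bp and 49.3 (45.0 to 53.8) above 5000 bp. Shorter 3′ UTR exons held few peaks and had wide intervals, with 3 peaks at 1 to 100 bp (208 per Mb, 42.9 to 607), 3 at 101 to 150 bp (142 per Mb) and 0 at 151 to 200 bp, which allows up to 122 per Mb by the Poisson interval. Cut into 3 stretches of equal length, 3′ UTRs held 39.6 peaks per Mb next to the stop codon (35.6 to 43.9), 43.4 in the middle and 45.7 next to the transcript end (41.4 to 50.3), and the intervals of the ends overlap. The median distance of a summit from the TSS of its own gene was 41.6 kb for coding exons and 27.4 kb for 3′ UTRs.

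The extent of the peaks tells how much of each was exon. A 3′ UTR peak sat whole within exons in 1069 of 1188 cases (90.0%), in exons with a median length of 4341 bp. A coding peak did so in 67 of 499 cases (13.4%), since its exon had a median length of 167 bp and the peak one of 406 bp. Most coding peaks thus ran on beyond their exon, with a median of 43.3% of the peak length in exons. Summits in exons of 2 protein-coding genes numbered 43, and their gene cannot be told apart.

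Exonic peaks were slightly weaker than peaks in introns and outside genes under the same distance rule. Fold enrichment is the ratio of ChIP coverage to local input at the summit as the authors' peak caller gave it. Its median was 5.72 over the exonic peaks, 5.60 in coding exons, 4.76 in 5′ UTRs and 5.92 in 3′ UTRs, against 6.24 in introns, 6.26 outside genes and 6.10 over all peaks on chromosomes 1 to 22. A fold enrichment of at least 5 was reached by 1061 of the 1773 (59.8%, 57.5% to 62.1%), beside 62.7% of all peaks, and one of at least 10 by 408 (23.01%, 21.1% to 25.03%), beside 26.3% of all peaks. By class the share at 5 or more was 56.7% in coding exons, 43.0% in 5′ UTRs (33.1% to 53.6%) and 62.4% in 3′ UTRs (59.6% to 65.1%), and that of 3′ UTRs cannot be told from the 62.7% of all peaks. Height in fragments at the summit ran from 15 to 417 with a median of 51, beside 55 in introns. The median local input implied by coverage and fold was 5.15 at exonic summits and 5.00 at intron summits. Just outside the 5 kb limit, at 5 to 6 kb, lay 54 exonic peaks with a median fold of 5.21, and just inside it, at 4 to 5 kb, 63 with a median of 5.18. The 1290 exonic peaks within 5 kb of a TSS had a lower median fold, 4.68, than the 5.72 of those described here.

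**Figure D3:**
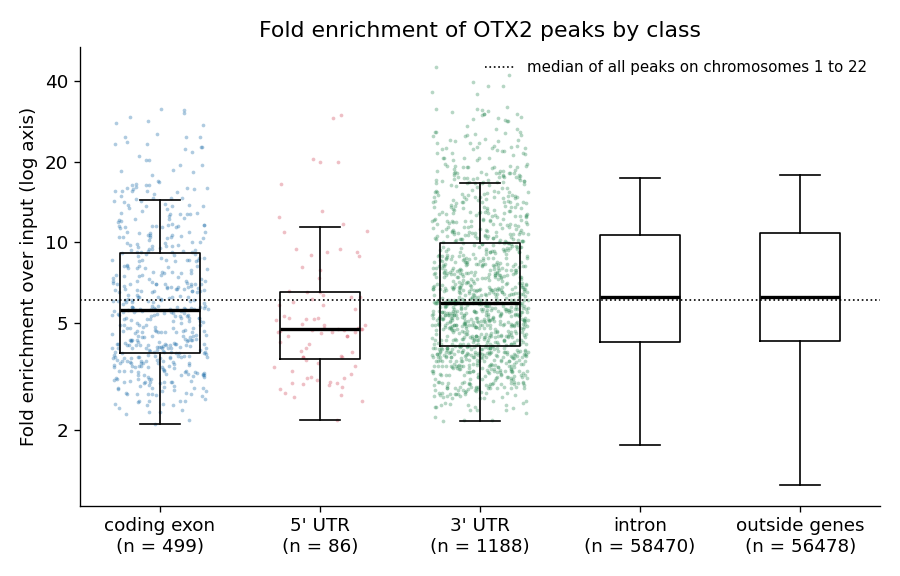
Fold enrichment over input (log axis) of each exonic peak as a point, with boxes for the quartiles, a bar at the median and whiskers from the lowest value to the 90th percentile. Introns and space outside genes are shown as boxes only, the dotted line marks the median of all peaks (6.10), and the 5′ UTR median of 4.76 is the lowest.

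In coding exons the highest peaks fell in genes of unlike roles. MDN1, a large ATPase of ribosome assembly, had the highest fold, 31.4 with 255 fragments, at chr6:89675794-89676642 (GRCh38), its summit in coding exon 77 of 102. The exon there, 106 bp long, gave 83 bases of sequence around the summit, which held neither motif. MET, the receptor for hepatocyte growth factor, followed with 31.3 and 211 fragments at chr7:116762174-116763534, in exon 11 of 21, and its TAATCC lay 1 bp from the summit. CAPN7, a calpain protease, reached 30.5 with 234 fragments at chr3:15220343-15222616, in exon 5 of 21. TRAPPC8, a subunit of a vesicle tethering complex, reached 29.4 with 319 fragments at chr18:31930140-31932321, in exon 2 of 29. These 4 peaks are 849 to 2274 bp long and lie mostly in intron, with 8.84% to 16.1% of their length in exons.

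The other coding peaks among the 8 highest were in CAPRIN2, an RNA-binding protein (28.4, exon 3 of 19), ZNF780B, a zinc finger gene (27.9, exon 5 of 5), SLC25A33, a mitochondrial nucleotide carrier (27.5, exon 6 of 7), and CPD, a carboxypeptidase (25.4, exon 11 of 21). ZNF780B was the single one of the 8 whose whole peak, chr19:40035789-40036470, lay in the exon, and its TAATCT was 38 bp from the summit. The CAPRIN2 summit was 41 bp and the CPD summit 112 bp from the annotated start of a further transcript of the same gene. By the order of fold enrichment these 8 peaks lie above 96.9% of all peaks on chromosomes 1 to 22.

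Among 5′ UTR peaks, TRIB3, a pseudokinase of the stress response, had the highest fold, 29.8 with 242 fragments, at chr20:380352-381182. Its summit lay in exon 1, 178 bp from the start of the canonical transcript. A protein-coding gene without a symbol, ENSG00000288637, followed with 29.3 at chr4:153222249-153223894, 76 bp from a transcript start of TRIM2, a ubiquitin ligase of neurons. TULP4 reached 20.5 with 278 fragments at chr6:158312665-158313330, the one peak of these 8 that lay whole in the exon. TLK2, a kinase acting in chromatin assembly, reached 20.0, CHD7, a chromatin remodeller of neural crest and brain, 19.9, and SRGAP3, a GTPase-activating protein of slit-robo signalling, 16.6. ZNF391 (13.1) and NIM1K (12.5), a kinase gene, completed the 8. In 7 of the 8 the summit was within 285 bp of a transcript start of a protein-coding gene, and NIM1K, at 49686 bp, was the exception. All 8 held at least 1 motif within 50 bases of the summit.

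3′ UTR peaks were the highest of all exonic peaks. LRRC57, a leucine-rich repeat gene, had a fold of 45.0 with 304 fragments at chr15:42539044-42540283, in the 3′ UTR of exon 6 of 6, above 99.9% of all peaks on chromosomes 1 to 22. No TAATCC or TAATCT was found within 50 bases of its summit. C1orf100 reached 42.3 with 366 fragments at chr1:244388766-244389822, and SCYL3, a pseudokinase, 39.7 with 377 fragments at chr1:169851197-169851956. QSOX1, which forms disulfide bonds, had the most fragments of any exonic peak, 417, at a fold of 38.5 and chr1:180198060-180199057. DLGAP2, a scaffold of the postsynaptic density, reached 38.4, MMACHC, of cobalamin metabolism, 36.5, CBL, a ubiquitin ligase for receptor kinases, 35.9, and NAP1L1, a histone chaperone, 32.0. Of the 8, CBL, NAP1L1 and LRRC57 held neither motif in the 101 bases searched.

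Most genes had a single exonic peak. The 1773 peaks fell in 1507 genes, of which 216 had 2 or more. SUGT1, a cochaperone, had 5, all in its 3′ UTR in exon 13 of 13, whose exon spans chr13:52687734-52700909. Their fold enrichments were 12.1, 14.7, 5.11, 4.35 and 21.3 in the order of position, with 44 to 289 fragments each. MYO10, an unconventional myosin of filopodia, also had 5, with 3 in the 3′ UTR (5.07, 5.61 and 2.86) and 2 in coding exons 39 (4.91) and 19 (19.5). BNC2, a zinc finger gene, had 4 peaks (6.83, 7.29, 4.36 and 8.18), as had GLUL, glutamine synthetase (2.74, 11.2, 6.82 and 3.56), and GNE, an enzyme of sialic acid synthesis (13.2, 2.97, 3.13 and 3.71). A further pair of genes with 4 peaks each, PRTG and SCN3B, was left out by alphabetical order and is given after its values were seen. All 8 of their peaks lay in 3′ UTRs, and 2 of those of SCN3B, a sodium channel subunit, reached 30.6 and 30.1.

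OTX2 itself had an exonic peak. It lay at chr14:56800737-56802048, whole within exon 5 of 5, with its summit at codon 265 of 298, 14.9 kb from the TSS and 3814 bp from the nearest start of another transcript. The fold was 9.47 with 111 fragments, above 71.6% of all peaks on chromosomes 1 to 22, and the motif stood 2 bp from the summit.
OTX2 exon 5: cactgattgcttGGATTAtaaggaccaaac
The capitals are TAATCC read from the other strand. This peak is 1 of 24 in 21 of 163 genes of developmental transcription factors, whose highest were TCF12, a bHLH factor, in its 3′ UTR (19.1), and FOXN2, a forkhead factor, in coding exon 3 of 7 (18.4).

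Around the summits the OTX2 motif was far more frequent than elsewhere in exons of the same class. Windows of 101 bases, 50 on either side of the summit, could be read whole within the exon for 1429 of the 1773 peaks. TAATCC or TAATCT, on either strand, occurred in 819 of them (57.3%, 54.7% to 59.9%), against 9.49% of all windows of that length tiled over exons away from the TSS, weighted to the same mix of classes. In coding exons the motif was found in 122 of 221 summit windows (55.2%, 48.6% to 61.6%) against 4.66% of all 177247 coding windows. In 3′ UTRs it was found in 683 of 1161 (58.8%, 56.0% to 61.6%) against 10.6% of 267109. In 5′ UTRs it was found in 14 of 47 (29.8%, 18.7% to 43.98%) against 5.02% of 5440. No other letters were ranked higher: of 1574 words of 6 letters present in at least 20 summit windows, with reverse complements joined, TAATCC had the highest ratio to all windows (39.7% against 4.94%, a ratio of 8.04), and TAATCT was the fifth (5.23). The words between them were CTAATC and TTAATC, which overlap the motif, and TAAGCC (16.0% against 2.95%), which shares TAA and CC with it. CAGCTG and CAGATG, letters bound by bHLH factors, ranked 192 and 349, with ratios of 1.37 and 1.17.

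The motif was concentrated at the summit itself. In 1048 3′ UTR exons that reach 250 bases on either side, its density was 10.7 per kb (9.86 to 11.6) within 25 bases of the summit, 5.52 at 25 to 50, 2.96 at 50 to 75 and 1.05 (0.791 to 1.37) at 225 to 250, where the interval takes in the 1.14 per kb of all 3′ UTR windows. Where a motif lay within 50 bases in the exon, its centre was a median of 13.5 bp from the summit. Base composition of the windows did not differ in one direction over the classes: the median GC share was 40.6% in 3′ UTR summit windows and 40.6% in all 3′ UTR windows, but 43.6% against 50.5% in coding exons and 60.4% against 55.4% in 5′ UTRs.

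**Figure D4:**
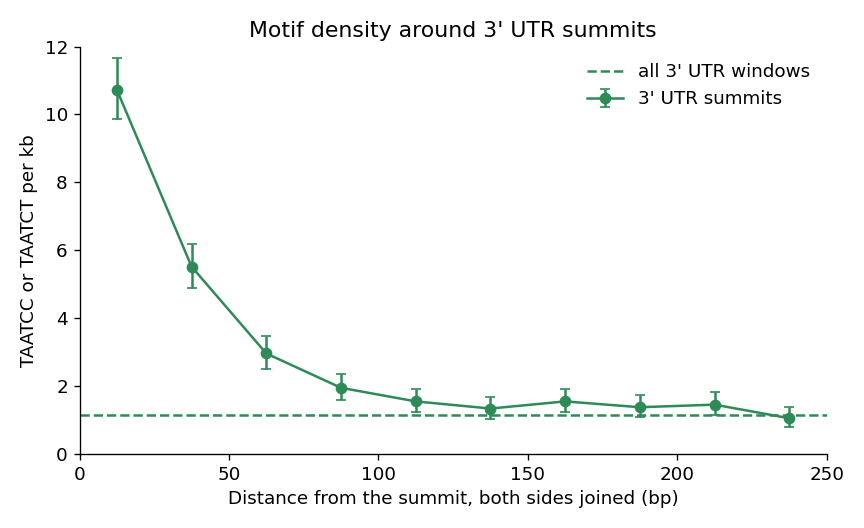
Number of TAATCC or TAATCT per kb by distance from the summit, both sides joined, in 1048 3′ UTR exons, with Poisson 95% intervals; the dashed line is the density in all 3′ UTR windows (1.14 per kb). The density falls from 10.7 to 1.05 per kb over 250 bases.

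Higher peaks more often held the motif. Over exonic summits the share with TAATCC or TAATCT was 46.5% (42.4% to 50.7%) below a fold of 5, 59.6% from 5 to 10, 69.3% from 10 to 20 and 75.3% (64.9% to 83.4%) from 20. Coding exons went from 45.6% to 81.8%, the latter over 11 windows, and 3′ UTRs from 48.8% to 73.1%. Read the other way, the median fold was 6.58 in windows with the motif and 5.21 in those without. For 5′ UTRs these medians were 12.8 over 14 windows and 4.46 over 33.

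**Figure D5:**
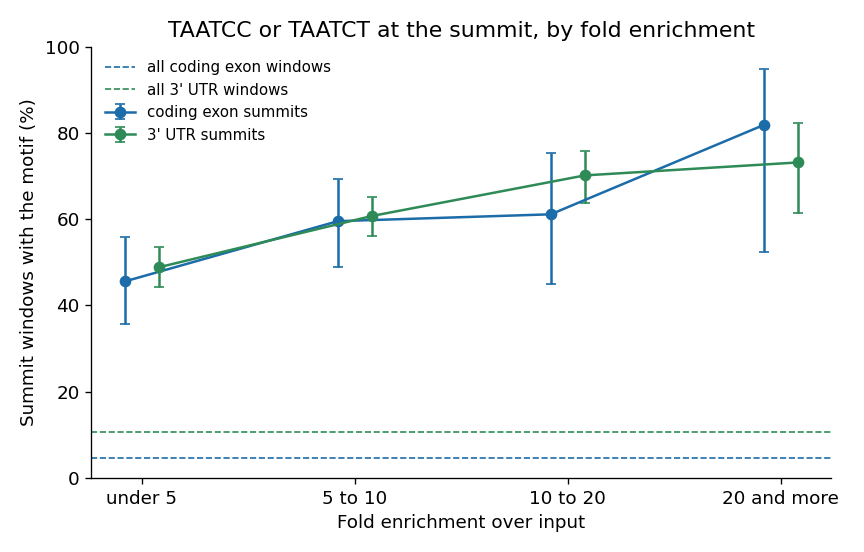
Share of 101-base summit windows with TAATCC or TAATCT by fold enrichment, for coding exons and 3′ UTRs, with Wilson 95% intervals; dashed lines are the shares in all coding (4.66%) and all 3′ UTR (10.6%) windows. The shares are 45.6% and 48.8% below a fold of 5, and 81.8% and 73.1% from 20.

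In coding exons the motif also has a reading frame. In 249 coding peaks the nearest motif within 50 bases lay whole in the coding sequence, in 95 on the strand of the gene and in 154 on the other strand (38.2% on the gene's strand over all coding summits with a motif, 32.5% to 44.4%). Among all 12484 such motifs in coding exons away from the TSS, 36.7% were on the gene's strand. On that strand and in frame the motif would begin with the stop codon TAA. That placement was found in 0 of the 249 peaks, and among all sites in 5 of TAATCC and 2 of TAATCT. Among the other placements, GGATTA in frame, which encodes glycine and leucine, made up 38 of the 249 (15.3%, 11.3% to 20.3%) and 10.3% of all sites, and TAATCC on the gene's strand from the last codon position made up 43 (17.3%, 13.1% to 22.5%) and 12.3%. Both are placements of TAATCC, and GGATTA from the last codon position made up 25 (10.04%, 6.89% to 14.4%) and 10.9%. Each placement of TAATCT had a lower share among the peaks than among all sites. AGATTA in frame, which encodes arginine and leucine, made up 19 (7.63%, 4.94% to 11.6%) and 7.96%. From the last codon position AGATTA made up 15 (6.02%, 3.68% to 9.7%) and 12.1%. These shares do not separate the frame from the choice of motif, and a preference for a frame was not tested. In 3′ UTRs, where no frame applies, 369 of 699 motifs (52.8%, 49.1% to 56.5%) were on the strand of the gene.

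For 33 peaks, 28 of them in 5′ UTRs, the summit also fell in a RefSeq promoter window, from 250 bases before to 50 after a gene start in GRCh38.p14. Of these, 7 (21.2%) had TAATCC or TAATCT anywhere in the window of 300 bases, against 12.8% of all 33558 promoter windows on chromosomes 1 to 22. The share rests on few peaks, and its difference from that of all windows was not tested. The nearest motif lay 65, 93 and 175 bp from the summit in the windows of NUCB2, EED and BOLA1. In those of SCHIP1 and LINC00400 it lay 8 and 9 bp away. KIF11, a mitotic kinesin, and BCL2L13, a mitochondrial BCL2 family protein, had the motif 6 and 5 bp from their summits, with folds of 9.48 and 7.92. Both runs are from the plus strand, and capitals mark TAATCT on the other strand.
KIF11 chr10:92593144-92593173: cgggcggagacgAGATTAgtgatttggcgg
BCL2L13 chr22:17638769-17638798: ggcggcggcggtAGATTAgggccgcgggtc
No match in such a window says only that these letters were not in it.

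Genes with an exonic peak were also more often marked elsewhere. Among them 77.5% had an OTX2 peak within 5 kb of their own TSS and 79.0% had one in an intron, against 63.5% and 53.9% of the other 14164 genes with exon sequence away from a TSS. Genes with an exonic peak were longer, with a median of 71.7 kb against 35.9 kb and 4.96 kb against 2.53 kb of exon considered, and the part of length in these differences was not tested. An exonic peak without any intron peak was found in 317 genes, and without any peak at the TSS either in 83.

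Gene groups chosen by symbol are given by their counts, beside 1507 of 15671 genes (9.62%) and 33.3 exonic peaks per Mb over all genes. Axon guidance families (semaphorins, ephrins, slits, netrins and their receptors) had a peak in 8 of 66 genes (12.1%, 6.27% to 22.1%) with 28.6 peaks per Mb (13.7 to 52.5), the share above and the density below the values over all genes. The highest were EPHB2, an ephrin receptor, in its 3′ UTR (15.5), ROBO1, a slit receptor, in coding exon 16 of 31 (13.7), and DCC, a netrin receptor, in its 3′ UTR (11.1). EPHB2 had TAATCT 49 bp and ROBO1 TAATCC 7 bp from the summit, and DCC had neither in the window. Photoreceptor genes, a programme that OTX2 governs in the retina, had a peak in 6 of 55 genes (10.9%, 5.10% to 21.8%) with 51.1 peaks per Mb (23.4 to 97.0). The folds of 5.69 in CNGB3, a photoreceptor channel subunit, and 5.64 in CRX, a close relative of OTX2, were among the 3 highest and lay below the median of all peaks. CNGB3 had 223 fragments over a high local input of 28.0, and CRX 37 fragments over 4.00.

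Ion channel genes had a peak in 24 of 182 (13.2%, 9.02% to 18.9%) and 32.8 per Mb (22.2 to 46.9), with GRIN2B, a glutamate receptor subunit (19.2), and CLCN6, a chloride transporter of endosomes (17.5), among the 3 highest, both in the 3′ UTR. Cell cycle genes had one in 18 of 160 (11.2%, 7.24% to 17.1%) and 33.8 per Mb (20.9 to 51.6), led by CDC42BPA in its 3′ UTR (18.5), a cytoskeletal kinase caught by the symbol pattern alone, then SMC3, a cohesin subunit, in coding exon 11 of 29 (17.9), and MCM4, a replication helicase subunit, in coding exon 15 of 17 (16.4). Chromatin regulators had one in 11 of 103 (10.7%) and 27.1 per Mb (15.5 to 44.04), where CHD7, named above, was followed by HDAC9, a histone deacetylase, in its 3′ UTR (10.9), and KMT2A, a histone methyltransferase, in coding exon 3 of 36 (9.41), with TAATCC 2 bp from the summit.

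3 groups lay lower. C2H2 zinc finger genes had a peak in 36 of 543 (6.63%, 4.83% to 9.04%) with 18.8 per Mb (13.6 to 25.3), led by ZNF780B and by ZNF75A (17.6) and ZBTB34 (14.4) in their 3′ UTRs. Cadherins and protocadherins had one in 5 of 92 (5.43%, 2.34% to 12.1%) with 11.7 per Mb (3.81 to 27.4), led by the coding exon peaks of CDH18 (12.7) and FAT3 (9.49) and a 3′ UTR peak of PCDH17 (7.57). Collagens and laminins had one in 3 of 54 (5.56%, 1.91% to 15.1%), namely COL6A3 (6.54), LAMB4 (6.38) and COL19A1 (3.11), all in coding exons. For developmental transcription factors the share was 12.9% (8.58% to 18.9%) with 45.2 per Mb (28.98 to 67.3). For the zinc finger, cadherin and collagen groups the interval of the density ends below 33.3 per Mb, that of collagens and laminins being 1.96 to 27.8. The 33.3 joins coding exons (20.1 per Mb) and 3′ UTRs (43.0), and the intervals of all 3 groups take in 20.1. Of their peaks 30 of 43, 2 of 5 and 0 of 3 lay in 3′ UTRs. The mix of exon classes among the bases of a group was not measured, and its part in the lower densities was not tested. By the intervals of the shares, the zinc finger genes were below the share over all genes, and those of the other groups take in 9.62%. The median fold of the exonic peaks of a group ran from 4.33 in chromatin regulators to 7.57 in cadherins and protocadherins, beside 5.72 over all exonic peaks.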

How the data were processed

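One OTX2 ChIP library and 1 input library of D283 tumorspheres were analysed. Per the submitters' processing notes and the study's methods, the authors mapped reads to GRCh38 with Bowtie2 2.2.4, called peaks with MACS2 2.1.0.20140616 and masked blacklisted regions; the q-value cutoff was 0.05. The deposited pileup is a signal: the authors' summit coverage, scaled to the input depth, in which 1 fragment adds 0.735, so whole fragments were read back. Fold enrichment, as deposited, is the ratio of pileup to local input, each with 1 added. The deposited −log10 values are those of each peak's p-value and q-value. Peaks were called on the pair of libraries, which leaves no replicate comparison.

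Exons came from GENCODE 44, whose GRCh37 table records each exon's original GRCh38 position (19894 of 20176 protein-coding genes); no coordinate was converted. Summits in several classes counted as coding exon before 5′ UTR before 3′ UTR. Intron means every other base between the ends of a protein-coding gene record, exons of its other transcripts included. Peaks per Mb used the bases of each class more than 5 kb from every protein-coding TSS. Exon letters were read from transcript records where exon lengths in both builds agreed (1755 of 1773 peaks); all 120 overlaps with RefSeq GRCh38.p14 promoter windows were identical. Intervals are Wilson or Poisson at 95%. Python 3.11.15 was used with scipy 1.17.1, biopython 1.88, numpy 2.4.6, matplotlib 3.10.9 and pandas 2.3.3. Class calls, intervals and motif finding were tested on simulated data.

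Genes named were the 8 peaks of highest fold per class, the 5 genes with most exonic peaks and the 3 highest peaks of each gene list. Some items under this rule are not reported here. Peak threshold, distance, TSS, exon set, overlap, local input, overlapping genes, chromosome 7, window and motif were varied. The members and lists were chosen with earlier results of these data known. Peaks on chromosomes X and Y and outside the chromosomes were left out of the comparisons.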

Additional observations from a re-analysis of the deposited data

Results flagged for a closer look

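Exonic peaks away from the TSS also occurred on chromosome X, which the rule leaves out: 24 peaks, in data that none of the comparisons used. They amount to 12.01 peaks per Mb of exon, against 33.3 per Mb on chromosomes 1 to 22, with a median fold enrichment of 6.82 and a highest of 22.6. The intron density of chromosome X was not measured, so whether the lower density is particular to exons was not tested.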

How the results depend on the processing

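No paired analysis was possible because each arm held 1 library, and none could be left out. Of 93 values under an alternative, 61 stayed within 1.5 times the main count or the main value's 95% interval, and the ratio of exon to intron density was below 1 under each alternative (0.511 to 0.727). With a −log10 q of at least 5 the median fold was 6.39, the share at a fold of 5 or more 69.3% and the motif share 61.6%. With a fold of at least 5, which fixes the share at that fold, 1061 peaks remained in all (1.26%), 283 coding, 37 in 5′ UTRs and 741 in 3′ UTRs, with a density ratio of 0.583, a median fold of 8.30, 13.4% near another start and a motif share of 64.0%. At 10 kb the share of peaks was 1.13%. Counting every transcript start of protein-coding genes left 1164 peaks (0.869%), 271 coding and 3 in 5′ UTRs, with a ratio of 0.673, 2.66% near another start and a motif share of 61.0%. With exons of every protein-coding transcript the share was 1.77%, 5′ UTR peaks numbered 398, the ratio was 0.727 and 25.9% were near another start. Requiring 50% of the peak in exons gave 1.09%, 205 coding and 49 5′ UTR peaks, a ratio of 0.511 and 12.04% near another start. The motif share was 41.7% with 25 bases on either side (4.50% of all windows), 67.8% with 100 (19.1%) and 39.7% for TAATCC alone. Leaving out summit windows with the 12-letter run that recurs most often around TAATCC in these exons, chosen after seeing the data, gave 56.4%. This run held 21.4% of the TAATCC sites in these exons. Among the 652 peaks with TAATCC within 50 bases of the summit, 4.45% had it. The share of all windows was not recomputed without the run. The input, at 22521186 fragments, limits the precision of low folds.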
